A study of Rattus norvegicus with 36 samples.

Results

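The 10 genes described here encode subunits of the respiratory chain and lie in the mitochondrial genome. They were chosen by identifier, and every one was listed in each of the 36 libraries, as 10 of 29516 annotated genes. Complex I, the NADH dehydrogenase, was represented by Mt-nd1 (ENSRNOG00000030644), Mt-nd2 (ENSRNOG00000031033), Mt-nd4 (ENSRNOG00000029707), Mt-nd5 (ENSRNOG00000029971) and Mt-nd6 (ENSRNOG00000029042). Complex III was represented by Mt-cyb, cytochrome b (ENSRNOG00000031766). Complex IV, the cytochrome c oxidase, was represented by Mt-co1 (ENSRNOG00000034234), Mt-co2 (ENSRNOG00000030371) and Mt-co3 (ENSRNOG00000030700). Complex V, the ATP synthase, was represented by Mt-atp6 (ENSRNOG00000031979). The gene lengths behind the deposited values, recovered from the ratio of counts to RPKM, ran from 519 bases for Mt-nd6 to 1830 bases for Mt-nd5.

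As background, mammalian mitochondria carry a small circular genome that is copied many times in a cell. It is transcribed as long precursors from each strand, which are cut into separate messenger RNAs. The subunits it encodes form the core of the complexes that pass electrons to oxygen, pump protons and make ATP, and the remaining subunits are encoded in the nucleus. Mt-nd6 is the only member read from the strand opposite to the rest. The steady level of each mitochondrial mRNA depends on its stability as well as on transcription, so members of a shared precursor need not be equally abundant.

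The pineal gland secretes melatonin at night, when sympathetic nerves from the superior cervical ganglia release norepinephrine onto it. Glands were taken from male and female Sprague-Dawley rats aged 40 days at mid-day (ZT7) or midnight (ZT19). Control rats had no surgery, and the others were operated on postnatal day 5: Sham rats had the ganglia exposed only, DCN rats had the ganglia cut off from their central input but left in place, and SCGX rats had both ganglia removed. Each combination of group and time had 3 libraries made from pooled glands. A second experiment used glands of female rats of the same strain, older than those used in vivo. These glands were held in culture for 48 hours and then left untreated or given norepinephrine (NE, 1 µM) or the cyclic AMP analog dibutyryl cyclic AMP (DBcAMP, 500 µM) for 6 hours, with 3 libraries per group. The last experiment had 1 library each of day pineal, night pineal and a mix of 15 other tissues, with no replicates. The age and sex of its rats were not stated. All glands came from rats kept in 14 hours of light and 10 hours of dark.

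Read-pairs counted on genes ran from 12985072 to 18504240 per library in vivo, from 12556861 to 18524435 in culture and from 28836161 to 38574186 in the single libraries. No replicate libraries were identical, and the chi-square per degree of freedom of the 33 replicate pairs was 6.17 or more. Sham night replicate 3 lay farthest from the other libraries of its group over all genes, with a median absolute log2 difference of 0.238. In bulk RNA, fewer cells of a type, fewer mitochondria per cell and less RNA per mitochondrion cannot be told apart. Marker genes of the gland and of other cell types were not analysed here, since the files pair no identifier with a symbol, so the tissue labels were not checked against them.

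The first question was how abundant each member was and how the members were ordered. Mt-co1, which carries the catalytic centre of cytochrome c oxidase, was the member with the highest level in every library and ranked 1 or 2 among all genes by read-pair count in each. In Control day glands its RPKM (the read-pair count scaled to gene length and sequencing depth) was 20211, 27219 and 17273, a mean of 21568. The other oxidase subunits followed, with mean RPKM of 6189 for Mt-co2 and 2917 for Mt-co3. Mt-atp6 came next at 1237.

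The complex I and III members were far lower. In the same glands the mean RPKM was 467 for Mt-nd1, 392 for Mt-cyb, 226 for Mt-nd5, 221 for Mt-nd4, 206 for Mt-nd2 and 189 for Mt-nd6. Neighbours in this order from Mt-co1 down to Mt-nd1 had libraries that did not overlap, and so did Mt-cyb and Mt-nd5. Mt-nd1 and Mt-cyb overlapped, as did each neighbouring pair among Mt-nd5, Mt-nd4, Mt-nd2 and Mt-nd6. The lowest count of any member in any library was 605 read-pairs, for Mt-nd6 in DCN day replicate 2, so that even this member was counted well above the filter on low values. Mt-atp6 and Mt-nd4 each overlap a smaller neighbouring gene in the mitochondrial genome, and read-pairs that fall on more than 1 gene were not counted, so their levels leave out that overlap. Copies of mitochondrial DNA in the nuclear genome share sequence with all members, and how read-pairs matching both were divided was not measured.

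**Figure D1:**
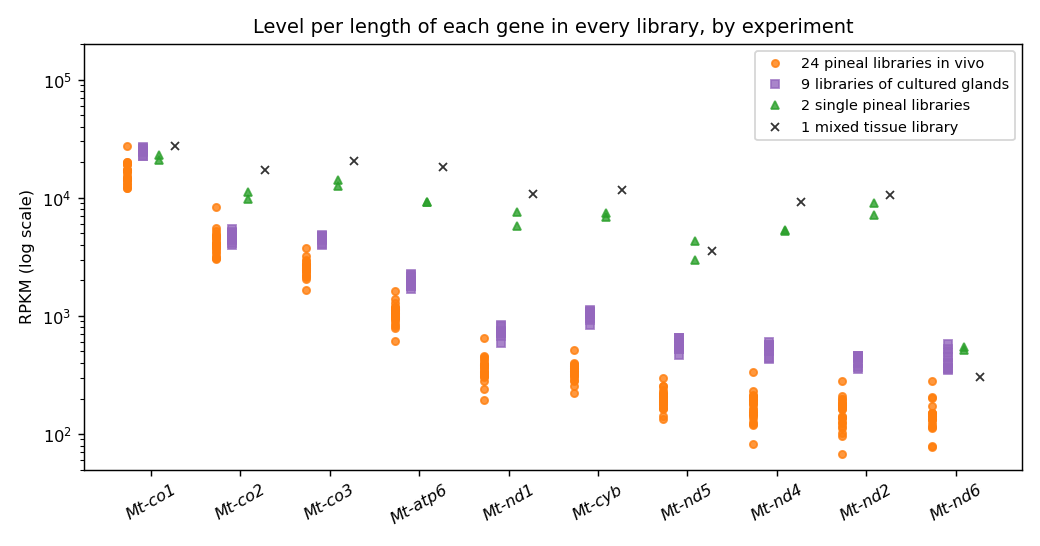
RPKM of each of the 10 genes (log scale) in every library, with genes along the horizontal axis and symbols for the experiment: 24 in vivo pineal libraries, 9 libraries of cultured glands, 2 single pineal libraries and 1 mixed tissue library. Mt-co1 lies at a like level in all experiments, while most other genes lie far higher in the single libraries than in the other 33.

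Summed over the 10 members, read-pairs made up a smaller share of every DCN and SCGX library than of any Control or Sham library. Mt-co1 supplied 72.6% to 81.4% of these read-pairs, and without it the summed shares overlapped. The share was 3.92%, 5.45% and 3.41% of the library in Control day and 3.32%, 3.70% and 3.74% in Control night. In Sham it was 3.88%, 3.96% and 3.37% at day and 3.43%, 3.37% and 3.28% at night. Only Control day replicate 2 stood above 4%.

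After DCN the share was 2.89%, 2.55% and 2.99% at day and 2.53%, 2.61% and 2.88% at night. After SCGX it was 2.81%, 2.86% and 3.00% at day and 2.55%, 2.90% and 2.79% at night. The 12 libraries with cut or removed ganglia therefore ran from 2.53% to 3.00%, and the 12 Control and Sham libraries from 3.28% to 5.45%, with no overlap. The same gap remained with TMM effective library sizes as the denominator (2.34% to 3.02% against 3.26% to 5.50%). Sham night replicate 3, which stood apart over all genes, held 3.28%, the lowest share of the 12 Control and Sham libraries. Mt-co1 alone made up 72.6% to 81.4% of the members' read-pairs in these libraries and was the 1 member whose RPKM separated them on its own (12068 to 15563 after DCN or SCGX, 16528 to 27219 in Control and Sham). The other 9 members overlapped one by one, and their summed share without Mt-co1 did too (0.473% to 0.766% against 0.670% to 1.24%). How many of all genes separated these libraries in this way was not counted. No test was made of the summed shares, and each gene was tested on its own.

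**Figure D2:**
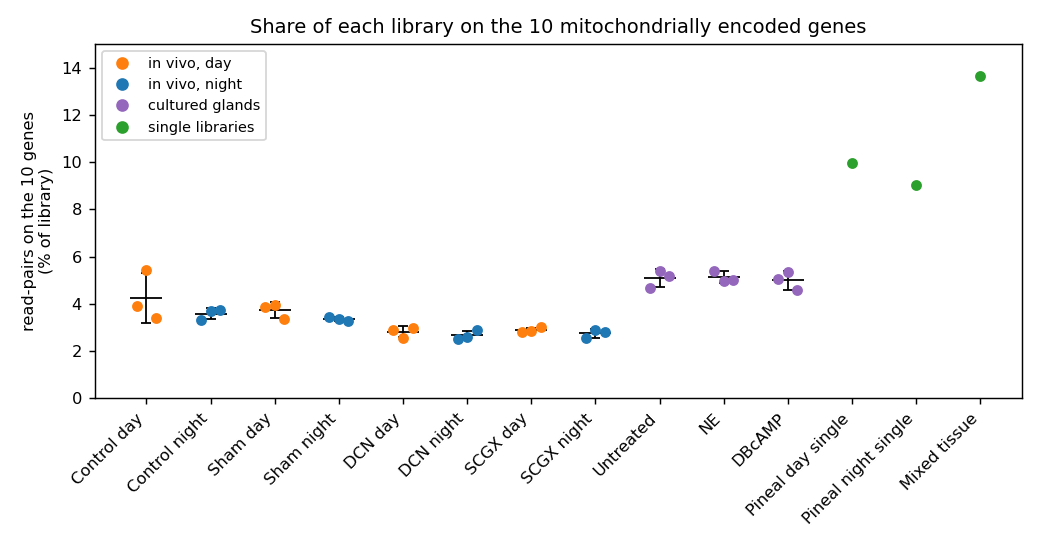
Share of read-pairs on the 10 genes, in % of all read-pairs on genes (vertical axis, from 0), for every library by group. Points are libraries, and bars give the mean ± SD of 3 libraries. Mt-co1 supplies most of the summed read-pairs in the in vivo groups. All 12 DCN and SCGX libraries lie at or below 3.00% and all 12 Control and Sham libraries at or above 3.28%, with cultured glands near 5% and the single libraries above 9%.

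The comparison of DCN with Sham asked how the gland differed once its ganglia had lost their central input. At day every member was lower after DCN, by 0.43 to 1.21 on the log2 scale, and the complex I members Mt-nd1, Mt-nd2 and Mt-nd4 passed the test. Mt-nd6, with a log2 fold change of -0.92 and an edgeR adjusted-p of 0.0656, did not. For Mt-nd2, a proton-pumping core subunit of complex I, RPKM was 211, 199.7 and 182 in Sham day and 96.0, 67.4 and 102 in DCN day. The log2 fold change was -1.21 ± 0.17 (SE, n = 3 per group, adjusted-p 0.0270, from the quasi-likelihood test of edgeR after Benjamini-Hochberg adjustment over all genes). Every DCN library was below every Sham library.

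Mt-nd4, another proton-pumping subunit, had RPKM of 198, 229 and 188 in Sham day and 118, 82.2 and 125 in DCN day. It fell by 0.97 on the log2 scale (SE 0.17, adjusted-p 0.0447). Mt-nd1, which helps form the quinone-binding site of complex I, had RPKM of 460.2, 451 and 385 in Sham day and 281, 193 and 242 in DCN day. It fell by 0.91 on the log2 scale (SE 0.15, adjusted-p 0.0407). The groups did not overlap for either gene.

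In all, 3 of 10 members passed adjusted-p 0.05 in DCN against Sham at day, all lower, where 2.53% of the 16076 genes tested passed in either direction. DESeq2 called all 10 members lower, against 8.52% of all genes in either direction. The median log2 fold change was -0.65 over the members and 0.02 over all genes tested. All 10 members had lower RPKM in every DCN day library than in every Sham day library, as did 10.3% of all genes tested. The 3 calls depended on single libraries. Without Sham day replicate 1, 2 or 3 no member passed, without DCN day replicate 2 only Mt-nd2 did and without DCN day replicate 3 only Mt-nd5 did. Without DCN day replicate 1, Mt-nd1, Mt-nd2 and Mt-nd6 passed and Mt-nd4 did not. Here and below, the share of all genes called with a library left out is not given.

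At night the fitted level of every member was again below Sham, by 0.01 to 0.51 on the log2 scale, and Mt-nd2 and Mt-nd4 again passed the test. The sign depended on the scaling for Mt-nd5, Mt-co3 and Mt-atp6. Their mean RPKM was higher in DCN night (205, 2585 and 1092) than in Sham night (191, 2545 and 1071). Mt-nd4 had RPKM of 205, 179 and 209 in Sham night and 153, 161 and 136 in DCN night, a log2 fold change of -0.51 ± 0.09 (SE, n = 3 per group, edgeR adjusted-p 0.0112). Mt-nd2 had 164, 141 and 169.7 in Sham night and 126, 113 and 135 in DCN night, a log2 fold change of -0.45 ± 0.11 (edgeR adjusted-p 0.0310). For each of these genes the groups did not overlap.

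These 2 of 10 members compare with 17.1% of all genes called in DCN against Sham at night. DESeq2 called 6 members lower (Mt-nd1, Mt-nd2, Mt-nd4, Mt-cyb, Mt-co1 and Mt-co2), against 19.6% of all genes. Mt-nd2, Mt-nd4, Mt-co1 and Mt-co2 were lower in every DCN night library than in every Sham night library, against 11.9% of all genes. Mt-nd5, Mt-co3 and Mt-atp6 lay close to Sham, with log2 fold changes of -0.01, -0.09 and -0.09 and edgeR adjusted-p of 0.978, 0.607 and 0.620. Only Mt-nd4 passed without DCN night replicate 1, DCN night replicate 2 or Sham night replicate 1. Without Sham night replicate 3 the count rose to 5, with Mt-nd1, Mt-co1 and Mt-co2 added. That library stood apart over all genes, and the share of all genes called without it is not given, so the 5 has no background.

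All fitted differences from Sham were negative at both times, so their mean over day and night was also fitted, over the 12 libraries. This comparison was chosen after the separate values had been seen. It called 9 of 10 members lower after DCN, against 17.8% of all genes in either direction. Mt-nd2 (log2 fold change -0.86 ± 0.11, SE, edgeR adjusted-p 0.000445), Mt-nd4 (-0.77 ± 0.11, edgeR adjusted-p 0.000811) and Mt-nd1 (-0.64 ± 0.09, edgeR adjusted-p 0.00113) fell the most. Mt-nd6 fell by 0.61, Mt-co2 by 0.53, Mt-co1 by 0.50, Mt-cyb by 0.47, Mt-atp6 by 0.43 and Mt-co3 by 0.35 on the log2 scale. Mt-nd5, the remaining complex I member, had a log2 fold change of -0.34 ± 0.12 and an edgeR adjusted-p of 0.0657. Mt-atp6, Mt-co3 and Mt-nd5 differed mainly at day, with log2 fold changes of -0.70, -0.54 and -0.60. Their values at night were -0.09, -0.09 and -0.01, so for them the mean does not describe both times. DESeq2 called all 10, against 21.6% of all genes. Mt-nd2, Mt-nd4, Mt-co1 and Mt-co2 were lower in all 6 DCN libraries than in all 6 Sham libraries, as were 1.24% of all genes.

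**Figure D3:**
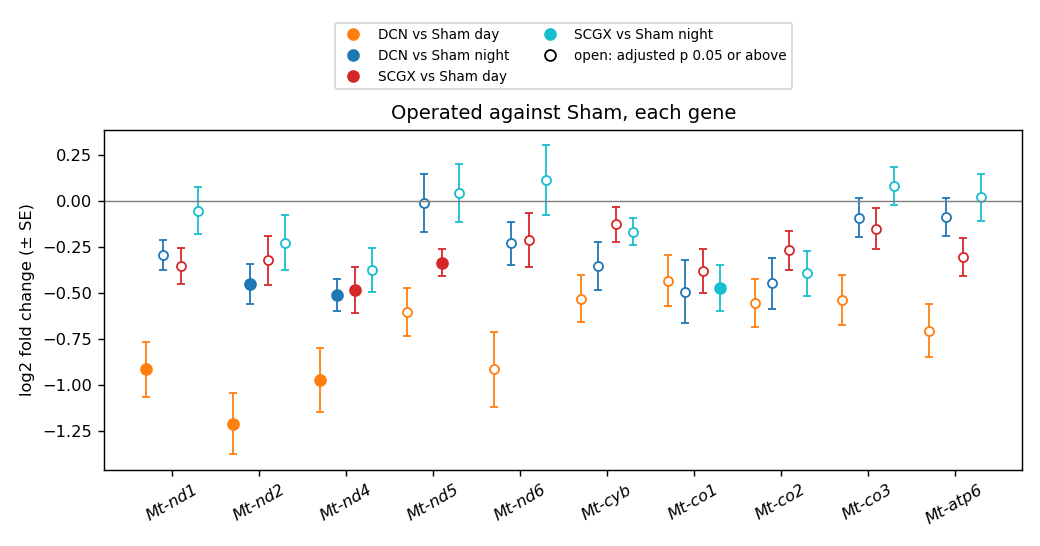
Log2 fold change against Sham (vertical axis, ± SE, 3 libraries per group) of each of the 10 genes after DCN and after SCGX, at day and at night. Filled points passed adjusted-p 0.05 in edgeR and open points did not. All DCN day points lie between -1.21 and -0.43, while the SCGX night points run from -0.47 to 0.11.

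The comparison of SCGX with Sham asked the same of glands that had lost the ganglia themselves, and it shares the Sham libraries with the comparison of DCN. At day all 10 members again had log2 fold changes below 0, from -0.48 to -0.12, and Mt-nd4 and Mt-nd5 passed the test. Mt-nd5, the largest mitochondrially encoded subunit of complex I, had RPKM of 209, 237 and 221 in Sham day and 165, 184 and 173 in SCGX day. It fell by 0.33 on the log2 scale (SE 0.07, n = 3 per group, edgeR adjusted-p 0.0251). Mt-nd4 had RPKM of 198, 229 and 188 in Sham day and 121, 167 and 146 in SCGX day, and fell by 0.48 (SE 0.13, edgeR adjusted-p 0.0455). No SCGX library reached the lowest Sham library in either gene.

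The 2 of 10 members called in SCGX against Sham at day compare with 11.4% of all genes, and the 5 called lower by DESeq2 (Mt-nd1, Mt-nd4, Mt-nd5, Mt-co1 and Mt-atp6) with 13.2%. The median log2 fold change was -0.31 over the members and -0.01 over all genes. Of the members, 7 were lower in every SCGX day library than in every Sham day library, against 18.2% of all genes. Mt-nd6, Mt-cyb and Mt-co3 overlapped with Sham. The count was 0 without Sham day replicate 2, SCGX day replicate 1 or SCGX day replicate 3. It was 1 without Sham day replicate 1 (Mt-nd5) or SCGX day replicate 2 (Mt-nd4), and 5 without Sham day replicate 3. These counts have no share of all genes beside them.

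At night 4 members had log2 fold changes above 0 after SCGX and 6 below. Mt-co1 passed the test, with RPKM of 17316, 17298 and 16528 in Sham night and 12068, 14482 and 13114 in SCGX night. Its log2 fold change was -0.47 ± 0.12 (SE, n = 3 per group, edgeR adjusted-p 0.0383), and the groups did not overlap. Mt-co2, which holds the copper centre that accepts electrons from cytochrome c, had RPKM of 4546, 4154 and 3901 in Sham night and 3099, 3824 and 3419 in SCGX night, a log2 fold change of -0.39 ± 0.12 (edgeR adjusted-p 0.0649). These were the 2 members lower in every SCGX night library than in every Sham night library, against 12.4% of all genes.

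Mt-co3, the remaining oxidase subunit, did not follow them. Its RPKM was 2527, 2415 and 2692 in Sham night and 2918, 2542 and 3219 in SCGX night, a log2 fold change of 0.08 ± 0.10 (edgeR adjusted-p 0.631). Mt-nd5, Mt-nd6 and Mt-atp6 likewise had log2 fold changes of 0.05, 0.11 and 0.02, none of which passed.

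The 1 of 10 members called in SCGX against Sham at night compares with 20.8% of all genes, and the 4 called lower by DESeq2 (Mt-nd4, Mt-cyb, Mt-co1 and Mt-co2) with 21.4%. No member passed without Sham night replicate 1, Sham night replicate 2, SCGX night replicate 1 or SCGX night replicate 2, and only Mt-nd4 did without SCGX night replicate 3. Without Sham night replicate 3, Mt-co1 passed together with Mt-nd4 and Mt-co2. No share of all genes stands beside these counts either.

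The mean of the day and night differences, also chosen after seeing the data, called 3 of 10 members lower after SCGX, against 18.6% of all genes. Mt-nd4 fell by 0.46 (SE 0.10, edgeR adjusted-p 0.00691), Mt-co1 by 0.45 (SE 0.08, edgeR adjusted-p 0.00340) and Mt-co2 by 0.36 (SE 0.09, edgeR adjusted-p 0.0167) on the log2 scale. DESeq2 called 6 members lower, against 21.4% of all genes. Mt-co1 was lower in all 6 SCGX libraries than in all 6 Sham libraries, as were 1.48% of all genes. Whether the effects of DCN and SCGX on the members differed was not tested.

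Night and day were then compared within each group, since the gland's transcriptome has a strong daily rhythm. In Control glands no member passed, while 35.3% of all 15622 genes tested did. No member reached an unadjusted p of 0.05 in edgeR there, and DESeq2 called none. Log2 fold changes ran from -0.29 for Mt-co2 to 0.08 for Mt-nd5. Control day replicate 2 widened the day group: without it Mt-nd4 and Mt-nd5 passed as higher at night, and the median over the members moved from -0.05 to 0.22. The share of all genes called without that library is not given here, so these 2 calls have no background.

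In Sham glands no member passed either, against 20.6% of all genes. Mt-nd2 had an unadjusted p of 0.0363 and was the only member under 0.05 in edgeR, and DESeq2 called none. Its RPKM was 211, 199.7 and 182 at day and 164, 141 and 169.7 at night, and these libraries did not overlap. The log2 fold change of Mt-nd2 was -0.25 ± 0.10 (edgeR adjusted-p 0.120). The shares of all genes that did not overlap, or had an unadjusted p under 0.05, are not given here. The interaction of group and time between Sham and Control called no member by either tool, none with an unadjusted p under 0.05 in edgeR, against 0.0126% of all genes.

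After DCN, 8 of 10 members had higher fitted levels at night, with a median log2 fold change of 0.46. None passed, but neither did any gene of the 15928 tested, a background of 0%. An unadjusted p under 0.05 was reached by 7 members in edgeR. The share of all genes under that cutoff is not given here, so this count has no background. Mt-atp6, the proton channel subunit of the ATP synthase, had RPKM of 788, 610.3 and 847 at day and 1155, 1186 and 935 at night. Its log2 fold change was 0.57 ± 0.15 (SE, edgeR adjusted-p 0.471). The groups did not overlap, but how many of all genes did so at night against day was not counted. DESeq2 called this gene alone (adjusted-p 0.0324), against 0.659% of all genes.

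Mt-co1 and Mt-co2 were the members outside this pattern in DCN, with log2 fold changes of -0.13 and -0.04. In SCGX, 7 members had positive and 3 negative log2 fold changes at night, and no member passed, against 1.85% of all genes. Mt-co2 (-0.27 ± 0.09, edgeR unadjusted p 0.0161, adjusted-p 0.167) was 1 of 2 members with an unadjusted p under 0.05, and Mt-atp6 (0.27 ± 0.12, edgeR adjusted-p 0.275) was the other. The share of all genes under that cutoff is not given here either. DESeq2 called none in SCGX.

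The interaction between DCN and Sham, which asks whether the night/day difference changed with the operation, called no member in edgeR, against 11.2% of all genes. An unadjusted p under 0.05 was reached by 6 members, again without a share of all genes to set beside it. Mt-nd2 came closest, with an interaction of 0.73 ± 0.22 on the log2 scale (SE, edgeR adjusted-p 0.0539). DESeq2 called Mt-nd1, Mt-nd2 and Mt-atp6, against 14.9% of all genes. The interaction of SCGX and Sham called no member with either tool, none with an unadjusted p under 0.05 in edgeR, against 18.5% of all genes.

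**Figure D4:**
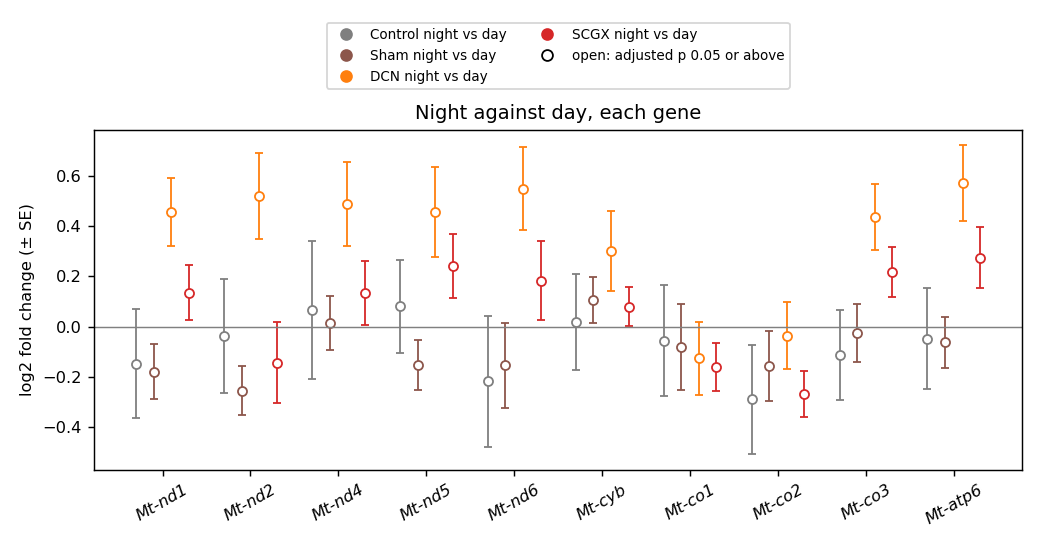
Log2 fold change of night over day (vertical axis, ± SE, 3 libraries per time) of each of the 10 genes in Control, Sham, DCN and SCGX glands. No point passed adjusted-p 0.05 in edgeR, so all are open. In DCN 8 genes lie above 0, up to 0.57, while Mt-co1 and Mt-co2 lie at -0.13 and -0.04.

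Because Mt-co1 and Mt-co3 parted at night after either operation, their ratio was examined in every library, a choice made after these values were seen, and no test was made of it. The ratio of their RPKM was 7.94, 7.27 and 7.02 in Control day, 7.66, 7.55 and 7.86 in Control night, 7.38, 6.66 and 6.94 in Sham day and 6.85, 7.16 and 6.14 in Sham night. In DCN it was 7.16, 8.13 and 7.36 at day but 4.47, 4.58 and 6.36 at night. In SCGX it was 6.57, 5.74 and 5.64 at day and 4.14, 5.70 and 4.07 at night.

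DCN night replicates 1 and 2 and SCGX night replicates 1 and 3 thus stood below the other 20 in vivo libraries, which ran from 5.64 to 8.13. The same 4 libraries had the lowest ratios of Mt-co1 to Mt-atp6 (9.51 to 10.6, against 14.3 to 22.0), to Mt-nd5 (49.96 to 60.1, against 76.3 to 109.9), to Mt-cyb (33.4 to 36.9, against 40.8 to 62.7) and, narrowly, to Mt-nd1 (30.5 to 37.9, against 38.4 to 69.8). These 4 libraries were picked by the ratio to Mt-co3. Every ratio shares Mt-co1, so the further ratios are not independent of that choice. The ratios of Mt-co1 to the other 4 members overlapped. They were 3.73 to 4.16 against 3.23 to 4.45 for Mt-co2, 74.3 to 111.6 against 77.7 to 199.5 for Mt-nd2, 68.1 to 79.1 against 79.1 to 163 for Mt-nd4 and 60.3 to 97.4 against 95.97 to 199.3 for Mt-nd6. Their read-pair totals were 12985072 to 15176961, against 13944276 to 18504240 in the other 20, and the part of depth in the ratios was not tested.

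**Figure D5:**
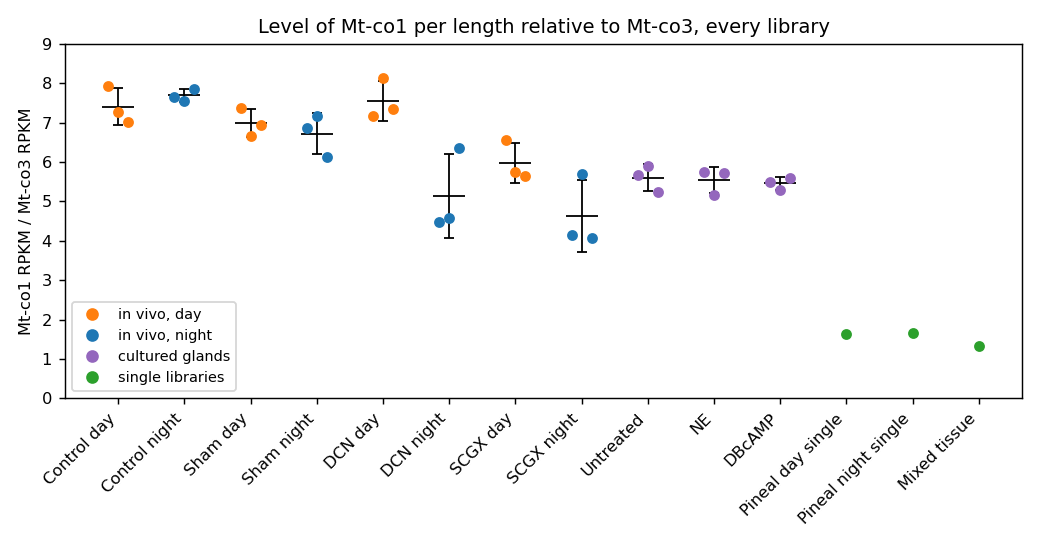
RPKM of Mt-co1 divided by RPKM of Mt-co3 (vertical axis, from 0) in every library by group, with the mean ± SD of 3 libraries as bars. In DCN night and SCGX night, 2 of 3 libraries each lie between 4.07 and 4.58, below the other 20 in vivo libraries, and the single libraries lie below 2.

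Across the 24 in vivo libraries, the log2 CPM (the count scaled to TMM library size) of Mt-co1 and Mt-co2 had a Pearson r of 0.94 with each other. With the other 8 members they had r of 0.51 to 0.80, while those 8 had r of 0.77 to 0.98 among themselves, highest for Mt-co3 with Mt-atp6. These are descriptions, since the libraries share groups and each member's read-pairs come from the same library. Among 11696 other genes whose mean normalized count was 50 or more, the level most like the mean of the members was that of ENSRNOG00000031053 (r = 0.93, recovered length 297 bases), followed by ENSRNOG00000033299 (r = 0.91, 204 bases). The files give neither symbol nor position for these rows, so whether they lie in the mitochondrial genome was not determined.

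In cultured glands, NE and DBcAMP stand in for the nightly stimulus. The members took 4.68%, 5.40% and 5.19% of untreated libraries, 5.40%, 4.97% and 5.01% with NE and 5.06%, 5.34% and 4.57% with DBcAMP, so that the groups overlapped. No member passed with NE, against 30.2% of all genes, or with DBcAMP, against 42% of all genes, comparisons that share the untreated libraries. No member had an unadjusted p under 0.05 in edgeR in either, and DESeq2 called none. The log2 fold changes ran from -0.19 to 0.15 with NE and from -0.10 to 0.17 with DBcAMP, with standard errors of 0.16 or less.

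Mt-nd5 had the lowest log2 fold change with NE. Its RPKM was 568, 650.5 and 654 in untreated glands, 548, 466 and 522 with NE and 593, 651 and 526 with DBcAMP. All NE libraries were below all untreated libraries, while NE and DBcAMP overlapped. Mt-nd2 and Mt-co2 were also lower in all NE libraries than in all untreated libraries, which made 3 of 10 members, against 32.8% of all genes tested. Mt-co2 was also below all untreated libraries with DBcAMP, the 1 member to be so, against 39.7% of all genes. Its RPKM was 5143, 5391 and 5063 in untreated glands, 5039, 4176 and 4455 with NE and 4352, 4871 and 4019 with DBcAMP. The log2 fold change of Mt-nd5 with NE was -0.19 ± 0.09 (SE, n = 3 per group, edgeR adjusted-p 0.140). With DBcAMP against NE directly no member passed, against 6.07% of all genes. Mt-nd5 was the only member with an unadjusted p under 0.05 in edgeR there (log2 fold change 0.25 ± 0.10, adjusted-p 0.174), and DESeq2 called none. Without untreated replicate 1, Mt-nd5 passed as lower with NE, a call that likewise has no share of all genes beside it.

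The single libraries had a different profile of the same genes, given here without a test, since there were no replicates and no group was shared with the other experiments. The members took 9.94% of the day pineal library (95% Wilson interval 9.93 to 9.95), 9.03% of the night pineal library (9.02 to 9.04) and 13.6% of the mixed tissue library (13.63 to 13.65), intervals that cover counting error only. Mt-co1 made up 35.9%, 35.4% and 30.9% of the members' read-pairs in these, against 72.6% to 81.4% in vivo and 74.0% to 76.8% in culture. Its own RPKM was 23122 and 20684 in day and night pineal, 1.07 and 1.12 times the Control mean of the same time.

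Every other member was higher than in Control at both times. For the day library, the ratio to the Control day mean was 1.57 for Mt-co2, 2.89 for Mt-nd6, 4.83 for Mt-co3 and 7.45 for Mt-atp6. It was 16.1 for Mt-nd1, 17.6 for Mt-cyb, 18.9 for Mt-nd5, 23.7 for Mt-nd4 and 43.4 for Mt-nd2. The night library had ratios of 2.48 for Mt-co2, 3.56 for Mt-nd6 and 39.8 for Mt-nd2 to the Control night mean. The labels give the same library kit for all samples, and the 3 experiments were sequenced as separate pools, so animals, preparation and sequencing run cannot be told apart here.

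Within that run, mixed tissue could be set beside pineal. Mixed tissue had more of 8 members than the day pineal library, scaled by median-of-ratios, from 1.17-fold for Mt-nd2 and Mt-co1 to 1.97-fold for Mt-atp6. Mt-nd6, read from the opposite strand, went the other way in both pineal libraries, with RPKM of 545 at day and 515 at night against 306 in mixed tissue. By median-of-ratios, its log2 ratio of pineal to mixed tissue was 0.84 at day (95% counting interval 0.79 to 0.89) and 0.97 at night (0.93 to 1.02). Scaled by library size, as RPKM is, the ratio was 0.83 at day and 0.75 at night. The order of day and night thus depended on the scaling. Mt-nd5 had log2 ratios of 0.27 at day and -0.03 at night. With 1 library each, these ratios compare the libraries and not the tissues.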

How the data were processed

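RNA of 36 libraries was measured as stranded total RNA-Seq. The authors aligned the reads (RNA-STAR, rn4 assembly) and gave each Ensembl gene a read-pair count by the union rule of HTSeq. These deposited counts were whole and not normalized, and the deposited RPKM values are those counts per gene length and library total. RPKM gave levels and lengths. It was not tested. Member symbols were given with the identifiers, and the members and lists were chosen with earlier results of these data known.

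Counts were tested with edgeR 4.0.16 (TMM, quasi-likelihood, Benjamini-Hochberg over all genes) in R 4.3.3, in the libraries compared only, for genes whose mean normalized count was 5 or more. A call is an adjusted-p under 0.05, the less strict of the study's thresholds. Counts of members at an unadjusted p are given without the share of all genes. The study's own tool, DESeq2 (1.42.0), was an alternative. A replicate is a pool of glands. An exact permutation test of 3 libraries against 3 cannot go below 0.1 and was not used. The text names every member. Alternatives were other scalings, filters, models, adjustments and leaving out each library, and the mean of day and night was added after seeing the data. Nuclear respiratory chain genes and cell type markers were not analysed here, since no table pairs the identifiers with symbols. For the same reason, and since no mitochondrial sequence was used here, none is printed. The rule for genes of similar pattern excluded mitochondrial rows, which could not be applied beyond the 10 members.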

Additional observations from a re-analysis of the deposited data

How the results depend on the processing

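The sign of every called member held under every alternative that gave a value. Counts of members called in DCN against Sham at day, DCN against Sham at night, SCGX against Sham at day and SCGX against Sham at night were 3, 2, 2 and 1. They were 0, 0, 0 and 0 at adjusted-p under 0.001 and likewise 0 with Benjamini-Yekutieli adjustment, and 10, 6, 5 and 4 with DESeq2. With all libraries of the experiment in 1 model the day counts were 8 (DCN) and 0 (SCGX), and in DCN at night Mt-co1 and Mt-co2 were called in place of Mt-nd2 and Mt-nd4. With library size only, the count in DCN at night was 1, and without the members in the library size it was 1, with 4 in SCGX at day. Where each library had to hold at least 10 read-pairs of a gene, SCGX at night had 0. In the mean of day and night, 9 after DCN became 2 at adjusted-p under 0.001 and 3 with Benjamini-Yekutieli adjustment, and 3 after SCGX became 0 and 1, and 6 with DESeq2. Except for DESeq2, the shares of all genes called under the alternatives in this section are not given. Those counts of members therefore have no background.

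Where no member was called, DESeq2 called 1 in DCN night against day and 3 in the interaction of DCN and Sham. Library size only, with or without the members, called 3 in that interaction and 1 each in Sham night against day, NE and DBcAMP. In the interaction of DCN and Sham, the filter of at least 10 read-pairs in every library gave 1. Leaving out Sham night replicate 3 and DCN day replicate 1 together also gave 1. No filter on low counts gave 1 for DBcAMP against NE. Scaling by library size moved the median of all genes by over 0.1 in several comparisons, most in Control night against day, from -0.03 to -0.21.

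Leaving out 1 library at a time gave 0 to 3 calls in DCN against Sham at day, 1 to 5 at night, 0 to 5 in SCGX against Sham at day and 0 to 3 at night. The range was 0 to 2 in Control night against day and the interaction of DCN and Sham, and 0 to 1 for NE and the interaction of SCGX and Sham. For the means of day and night it was 8 to 10 after DCN and 3 to 4 after SCGX. Other comparisons stayed at 0. The shares of all genes called with a library left out are not given here. The causes of these changes were not tested.

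Replicate numbers are shared between groups, but same-numbered libraries deviated together in 0 of 11 pairs of groups (r from -0.15 to 0.11), and in 0 pairs did every library correlate best with its own number. With the replicate number as a block, counts became 0 in DCN against Sham at day and SCGX against Sham at night, and 1 in the interaction of DCN and Sham, and the other counts were the same. With the length reduced by 100 bases, Mt-nd6 ranked 9 and Mt-nd2 10 in Control day. The rank of the other 8 members there was the same. Scaled by library size, the log2 ratio of night pineal to mixed tissue for Mt-nd5 was -0.25 in place of -0.03. For Mt-nd6 it was 0.75 in place of 0.97, and that scaling lowered the night ratio of every member.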
